A study of Mus musculus with 11 samples.

Results

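The integrated stress response is described here through 10 genes, chosen by name as Atf4 and genes it is known to activate in amino acid supply and stress: Atf4, Ddit3, Atf3, Trib3, Chac1, Ddit4, Asns, Psat1, Phgdh and Slc7a11. All 10 were found among the 47517 gene names of the count table, and all 10 had enough reads to be tested. The study measured total RNA, after removal of ribosomal RNA, in forelimb buds of C57BL/6 mouse embryos at E10.5. Mutants had the genotype Gmnn f/f; Prx-Cre (6 libraries) and controls Gmnn +/f; Prx-Cre (5 libraries), so that every embryo carried the Cre transgene and at least 1 floxed Gmnn allele. Gmnn encodes Geminin, an inhibitor of replication licensing. Prx-Cre expresses Cre recombinase in limb mesenchyme, so that ectoderm, vessels and blood in the same bud are not its target. The embryos came from 4 litters, called A to D, with both genotypes in each. Controls 1 and 2 shared litter A with mutants 1 and 2. Control 3 came from the litter of mutant 6 (B), control 4 from that of mutant 5 (C), and control 5 from that of mutants 3 and 4 (D).

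In the integrated stress response, kinases that sense amino acid shortage, unfolded protein, viral RNA or lack of heme phosphorylate the translation factor eIF2. General translation falls, while the Atf4 messenger RNA is translated more. Atf4 protein then pairs with C/EBP proteins on short DNA elements and raises genes for amino acid uptake and synthesis, for tRNA charging and, under lasting stress, for cell death. Since Atf4 is controlled largely at translation, its targets report on the pathway more directly than its own messenger RNA. Limb mesenchyme at this stage divides quickly, and serine and asparagine synthesis genes are known to be well expressed in such cells. Of 30 listed p53 target genes, 11 were higher in mutant buds, and the question asked of the 10 genes was whether a general stress response went with them.

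The element that Atf4 reads, the C/EBP-ATF response element, was searched as TGATGNAA on both strands in RefSeq promoters (build GRCm38.p6, which is mm10), from 250 bases before to 50 bases after each start site. All 10 genes had a promoter in the table, and Psat1 had a second one. The element was found in 5 of the 10 genes, against 4.51% of all 27025 genes in the table (3.97% of its 32851 promoters). The 4 promoters with a match before the start site are shown, without the bases after it, because these genes carry the letters through which Atf4 is known to act. The match is in capitals, and each sequence reads 5′ to 3′ on the strand of the gene.
Atf3 (chr1:191183334-191183583, minus strand): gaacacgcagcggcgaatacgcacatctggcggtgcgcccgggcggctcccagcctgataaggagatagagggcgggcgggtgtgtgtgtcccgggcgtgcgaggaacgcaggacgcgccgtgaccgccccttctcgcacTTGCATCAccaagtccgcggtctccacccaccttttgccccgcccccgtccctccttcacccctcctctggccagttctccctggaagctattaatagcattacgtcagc
Chac1 (chr2:119350992-119351241, plus strand): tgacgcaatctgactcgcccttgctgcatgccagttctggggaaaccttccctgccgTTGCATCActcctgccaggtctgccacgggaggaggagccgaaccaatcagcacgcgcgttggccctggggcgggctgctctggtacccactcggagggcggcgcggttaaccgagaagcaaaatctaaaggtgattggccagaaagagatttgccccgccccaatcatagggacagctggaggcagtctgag
Asns (chr6:7693210-7693459, minus strand): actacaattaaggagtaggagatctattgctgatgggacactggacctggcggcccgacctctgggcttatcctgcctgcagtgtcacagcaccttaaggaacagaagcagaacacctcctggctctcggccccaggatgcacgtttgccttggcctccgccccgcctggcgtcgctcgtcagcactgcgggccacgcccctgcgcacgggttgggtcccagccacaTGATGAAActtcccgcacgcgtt
Slc7a11 (chr3:50443614-50443863, minus strand): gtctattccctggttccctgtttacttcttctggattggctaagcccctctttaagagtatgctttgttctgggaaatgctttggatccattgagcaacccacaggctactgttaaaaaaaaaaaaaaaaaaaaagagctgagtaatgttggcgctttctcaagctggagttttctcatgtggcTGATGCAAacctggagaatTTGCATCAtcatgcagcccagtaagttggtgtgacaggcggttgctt
The match began 110 bases before the start site in Atf3, 193 in Chac1 and 23 in Asns. Slc7a11 had a match on each strand, beginning 66 and 47 bases before the start site. Trib3 had 1 match, TTACATCA, 14 bases after the start site of its RefSeq promoter. No match was found in these windows for Atf4, Ddit3, Ddit4, Phgdh or Psat1. A match is a description of these letters and not a measured binding site.

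Total counts were 14721181 to 19733288 reads per library. Gmnn, the targeted gene, had a control mean of 180 ± 40.2 CPM (read counts scaled to a common library size; SD, n = 5). Its mutant mean was 115 ± 16.1 CPM (SD, n = 6), and no mutant reached the lowest control. Its log2 fold change was -0.67 (SE 0.10, edgeR adjusted p 0.0291), and it passed the threshold in 3 of the 11 fits that leave out 1 library. All 10 limb mesenchyme markers were detected, and their summed level was 841 to 1050 CPM in controls and 832 to 978 CPM in mutants. Markers of other cells were present too. Red blood cell markers (11 of 12 in the table) summed to 13140 to 33710 CPM in controls and 16450 to 57430 CPM in mutants, the highest being mutant 2, and the 12 macrophage markers summed to 5.26 to 50.4 CPM and 16.2 to 67.9 CPM. None of the markers of either list was at 0 throughout or passed the threshold. The median log2 fold change, mutant over control, was 0.59 for the red blood cell markers tested and 0.76 for the macrophage markers. In bulk tissue, fewer cells of a type and less RNA per cell cannot be told apart. Mutant libraries also tended to a lower T-run index, the count-weighted mean of each gene's longest run of T bases (T run). It was 9.75 to 10.84 bases in controls and 9.21 to 10.24 bases in mutants. The groups overlapped, with control 5 (9.75) below mutants 1, 5 and 6. The longest run was 4 to 9 bases in 9 of the 10 genes and 17 bases in Slc7a11. The part of red cells, macrophages and T runs in the results below was not tested except where a value is given.

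None of the 10 genes passed an adjusted p of 0.05 between mutant and control buds (quasi-likelihood test in edgeR, blocked by litter), against 2.18% of the 15821 genes tested. At an unadjusted p under 0.05 the count was also 0, against 21.4% of all genes, and limma-voom likewise gave 0 at either threshold. DESeq2 also gave 0, with no adjusted p for Chac1. Other settings gave 1 gene at an unadjusted p under 0.05 (upper-quartile scaling, without control 4 or 5, without mutant 3 or 5, without litter C or D) or 2 (T-run index as covariate), and none of these passed after adjustment. The 2 groups overlapped in all 10 genes, while they did not overlap in 2.59% of all genes. Log2 fold changes, mutant over control, ran from -0.30 in Chac1 to 0.24 in Ddit3, with 5 above 0 and 5 below. Their median was 0.01, and that of all genes tested was 0.00. All 10 of the 95% intervals included 0. In 7 genes the interval lay wholly within 0.5 log2 units of 0, as it did in 48.6% of all genes. Ddit3 met that bound only narrowly, with an upper end of 0.4994. The other 3, Atf3, Trib3 and Chac1, had few reads and wide intervals.

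**Figure D1:**
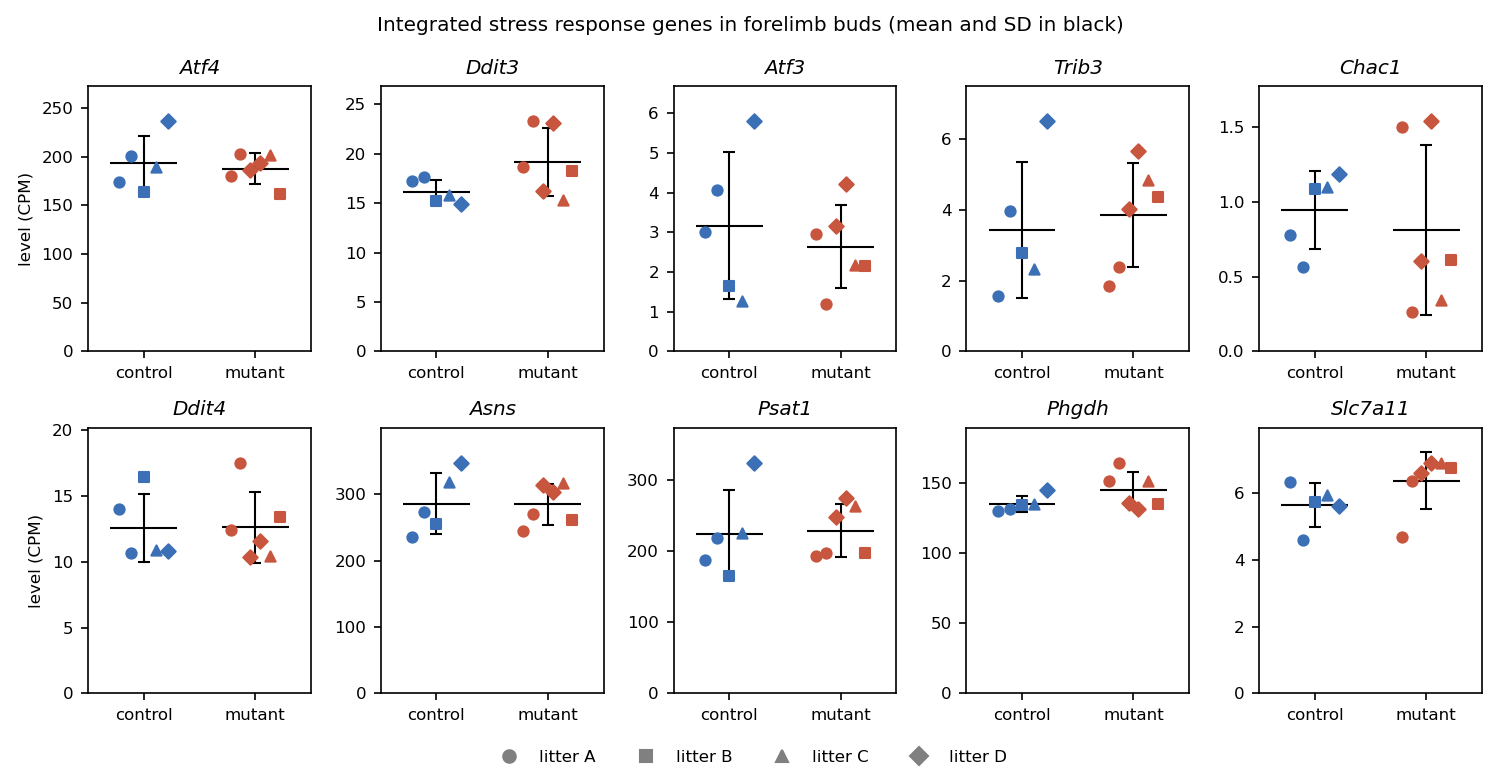
Level of each of the 10 genes in CPM, with 1 point per library (control blue, mutant red, symbol shape by litter), the mean as a black line and the SD as bars. The groups overlap in every panel. Control 5 of litter D is the highest control for 7 of the 10 genes.

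Levels per length spanned more than 2 orders of magnitude. Over the 11 libraries, CPM per kilobase of exon (RPKM) were highest for Atf4 (93.6 to 137.5, mean 110.3) and Asns (86.2 to 127, mean 104). These were followed by Phgdh (52.4 to 66.3, mean 56.6) and Psat1 (38.9 to 76.3, mean 53.3). Ddit3 (8.71 to 13.6 RPKM) and Ddit4 (6.14 to 10.4 RPKM) were lower. Trib3 (0.737 to 3.07 RPKM), Atf3 (0.553 to 2.70 RPKM), Chac1 (0.162 to 0.944 RPKM) and Slc7a11 (0.329 to 0.496 RPKM) were lowest. The ranges of Atf4 and Asns overlapped, as did those of Phgdh and Psat1, those of Ddit3 and Ddit4, and each neighbouring pair among the last 4. The steps from Asns to Phgdh, from Psat1 to Ddit3 and from Ddit4 to Trib3 were larger than the spread over libraries. The value of Slc7a11 is relative to 13922 exon bases in the authors' annotation, which lowers its RPKM.

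Among the transcription factors, Atf4 (chromosome 15, 80255184 to 80257540, plus strand) is the hub of the response. It stood at 174, 201, 164, 189 and 237 CPM in controls 1 to 5, and at 180, 203, 186, 194, 202 and 161 CPM in mutants 1 to 6. Control 5 was the highest library and mutant 6 the lowest, and the other 9 lay between. Its log2 fold change was -0.06 (SE 0.08, edgeR adjusted p 0.729), with a 95% interval of 0.856-fold to 1.08-fold. Without control 5 the value was 0.03.

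Ddit3 (chromosome 10, 127290774 to 127296288), also called CHOP, is the factor that links lasting stress to cell death. Controls 1 to 5 had 17.2, 17.6, 15.2, 15.9 and 14.9 CPM. Mutants 1 to 6 had 18.7, 23.4, 16.3, 23.1, 15.3 and 18.2 CPM. Mutants 2 and 4 lay above every control by more than 5 CPM. Mutants 1 and 6, at 18.7 and 18.2 CPM, were just above the highest control, and mutants 3 and 5 lay within the control range. Ddit3 had the smallest p of the 10 genes, with a log2 fold change of 0.24 (SE 0.12, unadjusted p 0.0656, edgeR adjusted p 0.267), an interval of 0.988-fold to 1.41-fold, and a higher mutant mean in 3 of 4 litters. In GENCODE M21, 4.73% of its exon bases also lie in the antisense genes Mars and Gm4189. Reads were counted without regard to strand, so that reads there could not be assigned to 1 gene.

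Atf3 (chromosome 1, 191170296 to 191218039) is a repressor and activator induced by Atf4, by p53 and by handling of cells. It was low and variable: 3.02, 4.07, 1.64, 1.28 and 5.82 CPM in controls 1 to 5, and 2.95, 1.19, 3.16, 4.22, 2.19 and 2.15 CPM in mutants 1 to 6. The coefficient of variation was 58.6% in controls and 39.4% in mutants, from 18 to 83 reads per library. Its log2 fold change, -0.29 (SE 0.30, edgeR adjusted p 0.629), was within that spread. Its direction differed between litters, with -0.85 and -0.65 in litters A and D and 0.37 and 0.72 in litters B and C (differences of mean log2 CPM).

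Of the feedback and stress genes, Trib3 encodes a pseudokinase that binds Atf4 and Ddit3 and dampens the response. Controls 1 to 5 had 1.57, 3.96, 2.78, 2.32 and 6.52 CPM, and mutants 1 to 6 had 1.85, 2.38, 4.03, 5.65, 4.85 and 4.36 CPM. Control 5 and mutant 4, both of litter D, were the highest of their groups, and control 1 and mutant 1, both of litter A, the lowest. On the log2 scale the fold change was 0.06 (SE 0.29, edgeR adjusted p 0.937). Mutants were above the control in litters B and C, by 0.63 and 1.02 log2 units, and below it in A and D, by -0.24 and -0.44.

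Chac1, which encodes an enzyme that degrades glutathione, had the fewest reads, 4 to 26 per library. Its level was 0.783, 0.566, 1.09, 1.10 and 1.19 CPM in controls 1 to 5, and 1.504, 0.265, 0.605, 1.55, 0.342 and 0.614 CPM in mutants 1 to 6. Mutants 1 and 4 were above all controls, and mutants 2 and 5 below all of them. Its log2 fold change was -0.30 (SE 0.48, edgeR adjusted p 0.769), and the interval, 0.390-fold to 1.68-fold, was the widest of the 10.

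Ddit4 (REDD1) encodes an inhibitor of mTORC1, and is a known target of Atf4, of p53 and of hypoxia. It stood at 13.98, 10.7, 16.4, 10.9 and 10.8 CPM in controls 1 to 5 and at 12.4, 17.5, 10.4, 11.6, 10.45 and 13.4 CPM in mutants 1 to 6. Control 3 and mutant 2 were the highest of their groups, and the means were nearly equal, at 12.5 ± 2.56 CPM (SD, n = 5) and 12.6 ± 2.67 CPM (SD, n = 6). The corresponding log2 fold change was 0.04 (SE 0.14, edgeR adjusted p 0.892).

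Among the amino acid supply genes, Asns, asparagine synthetase, had 236, 273, 255, 319 and 348 CPM in controls 1 to 5 and 244, 270, 314, 303, 317 and 261 CPM in mutants 1 to 6. Means were 286 ± 46.2 CPM (SD, n = 5) and 285 ± 30.5 CPM (SD, n = 6), and the log2 fold change was -0.03 (SE 0.07, edgeR adjusted p 0.822). The mutant differed from its own litter's control by 0.02, 0.04, -0.01 and -0.17 log2 units in litters A to D.

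Psat1 and Phgdh catalyse steps of serine synthesis. Psat1 had 188, 219, 166, 225 and 325 CPM in controls 1 to 5, and 193, 197, 248, 274, 263 and 197 CPM in mutants 1 to 6. Control 5 was again the highest library, and the log2 fold change was -0.02 (SE 0.09, edgeR adjusted p 0.946). Phgdh had the lowest coefficient of variation of the 10 in controls (4.44%), with 130, 132, 134, 135 and 146 CPM in controls 1 to 5 and 152, 165, 136, 132, 152 and 136 CPM in mutants 1 to 6. Its log2 fold change was 0.11 (SE 0.07, edgeR adjusted p 0.432). Transcripts of Phgdh match 16 other M21 gene names at 95% identity or more over at least 100 bases, Phgdh-ps1 among them. Reads that fit a copy equally well may have been left out at the minimum mapping quality of 10, which was not tested.

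Slc7a11, the cystine transporter subunit, is a target of both Atf4 and the oxidative stress factor Nrf2. It stood at 6.32, 4.58, 5.73, 5.93 and 5.61 CPM in controls 1 to 5, and at 4.69, 6.35, 6.58, 6.90, 6.90 and 6.75 CPM in mutants 1 to 6. Mutants 2 to 6 lay just above the highest control, and mutant 1 near the lowest control. It was the only 1 of the 10 genes with the same direction in all 4 litters, against 26% of all genes. The log2 fold change was 0.16 (SE 0.15, edgeR adjusted p 0.580). Annotated transcripts of Slc7a11 share up to 375 bases at 95% identity or more with other genes, Tuba1a, Tuba1b and Tuba1c among them, and its values are uncertain for that reason.

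By litter, the median difference of mean log2 CPM over the 10 genes was 0.02 in litter A, 0.13 in B, 0.13 in C and -0.21 in D. The same medians over all genes tested were between -0.01 and 0.01. In litter D the mutant mean was lower for 7 of the 10 genes. There control 5 is the only control, and it was the highest of the 5 controls for Atf4, Atf3, Trib3, Chac1, Asns, Psat1 and Phgdh, and the lowest for Ddit3. Its littermate mutant 4 was the highest mutant for Atf3, Trib3, Chac1 and Psat1. Mutant 3 of the same litter was above the mean of the 11 libraries for Atf3, Trib3 and Psat1 and below it for Chac1. The test of genotype by litter in edgeR, with 3 residual degrees of freedom, gave 0 of the 10 genes after adjustment, against 0% of all genes, and 0 at an unadjusted p under 0.05, against 3.82%.

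Differences between litters were tested with genotype in the model. At an unadjusted p under 0.05, 3 of the 10 genes differed between litters, against 13.5% of all genes: Psat1 (p 0.000977), Asns (p 0.00326) and Atf3 (p 0.0303). None passed after adjustment over all genes (adjusted p 0.115, 0.157 and 0.324 in that order, edgeR), where 0.0885% of all genes did.

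**Figure D2:**
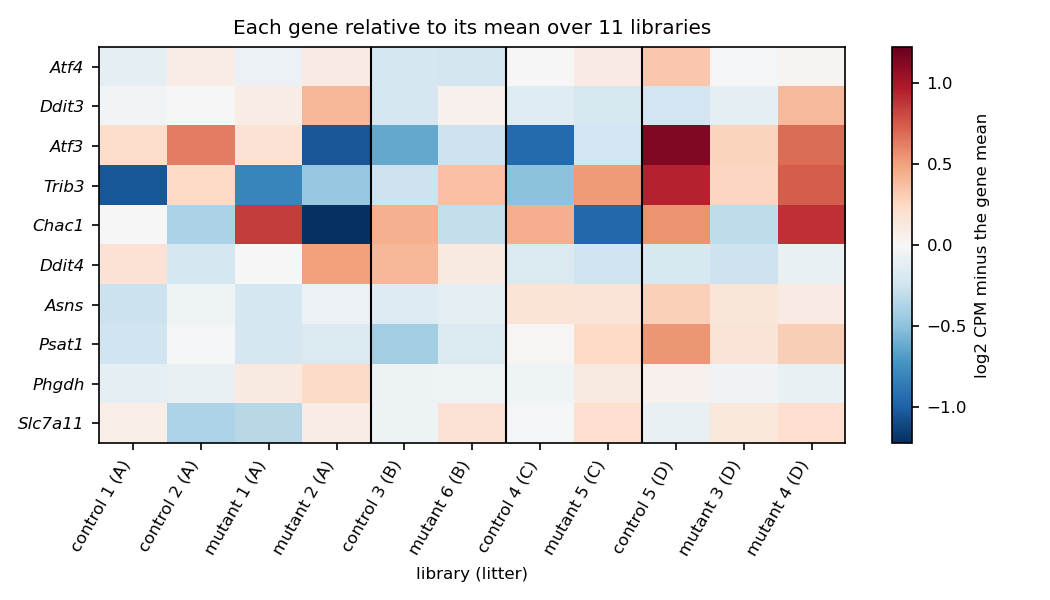
Heat map of log2 CPM minus each gene's mean over the 11 libraries, with genes in rows and libraries in columns ordered by litter (black lines divide litters A to D). Control 5 and mutant 4 of litter D are high for Atf3, Trib3, Chac1 and Psat1, while mutant 3 of that litter is below the mean for Chac1 (-0.31).

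The 5 genes whose log2 CPM over the 11 libraries was most like the mean standardised profile of the 10 genes were Polr1c (Pearson r 0.948), Amica1 (0.937), Selt (0.933), Hoxb4 (0.932) and Ldha (0.931). They are the highest of 15811 genes, the libraries share litters, and no p is given. None of the 5 differed between genotypes, with log2 fold changes of 0.03, 0.03, 0.08, 0.00 and -0.09 and edgeR adjusted p of 0.604 to 0.995. The profile was highest in control 5 (0.77) and mutant 4 (0.67), in SD units.

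Among p53 targets, 11 of the 30 listed genes were higher in mutants at an adjusted p under 0.05 and 0 were lower, against 0.702% and 1.48% of all genes. Their median log2 fold change was 0.36. By litter, the median difference of mean log2 CPM was 0.39, 0.44, 0.32 and 0.14 in litters A to D. Ccng1, a cyclin G gene and direct p53 target, rose from 16.1, 18.3, 15.5, 16.2 and 11 CPM in controls 1 to 5 to 41.1, 43.9, 42.5, 30.1, 39.8 and 52.0 CPM in mutants 1 to 6, with no overlap. Its log2 fold change of 1.48 had a 95% interval of 1.23 to 1.74 (edgeR adjusted p 0.000407). For Cdkn1a, the p21 inhibitor of cyclin-dependent kinases, the interval was 0.92 to 1.84 (log2 fold change 1.38, edgeR adjusted p 0.0291). The upper bounds of all 10 stress response genes lay below the lower bounds of both, the highest being that of Chac1 at 0.75. Eda2r and Trp53cor1 also had lower bounds above that value (1.58 and 2.16). The other called p53 targets had lower bounds below it, among them Sesn2 (0.64) and Zmat3 (0.42). The list median of 0.36 lay within the intervals of Ddit3, Atf3, Trib3, Chac1 and Slc7a11. Eda2r (2.08), Trp53cor1 (2.95) and Zmat3 (0.64) also rose. The longest T run is 9 bases in Ccng1, 26 in Cdkn1a and 18 in Zmat3. Mdm2 (0.09, edgeR adjusted p 0.557) and Bax (0.33, edgeR adjusted p 0.0563) did not pass. Of the 30 fold changes 6 were below 0, among them that of Sesn1, a paralogue of Sesn2, named here after its values were seen. Sesn1 had 24.01 ± 1.83 CPM (SD, n = 5) against 18.1 ± 1.79 CPM (SD, n = 6), with no overlap and a lower mutant mean in 4 of 4 litters (-0.41, SE 0.10, edgeR adjusted p 0.0546). In DESeq2, in limma-voom, with either other filter on low counts and without control 5, 1 p53 target was called lower.

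**Figure D3:**
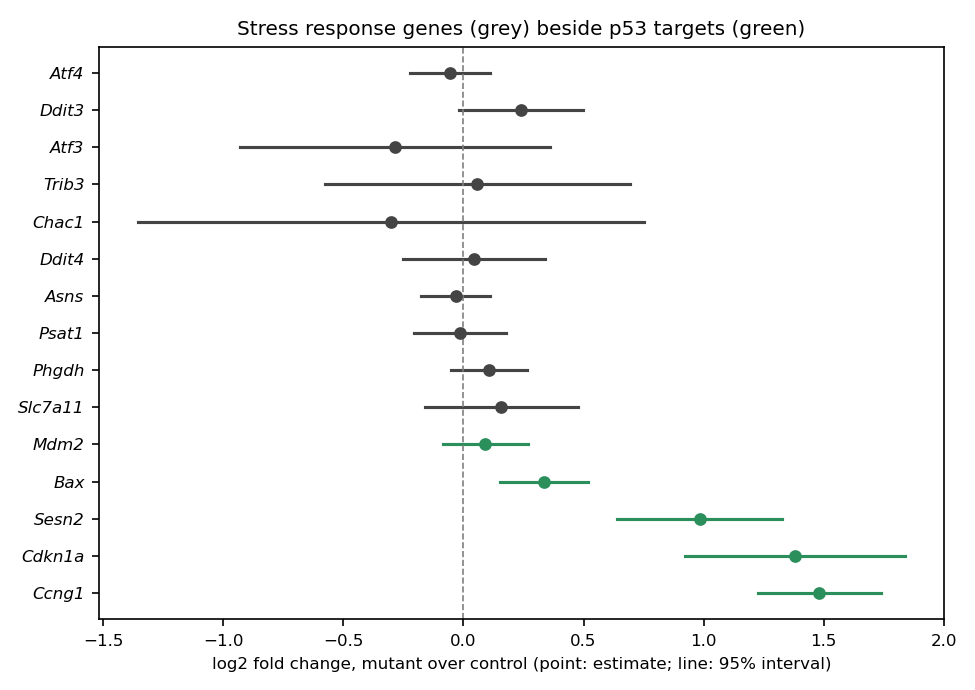
Log2 fold change, mutant over control, with its 95% interval for the 10 stress response genes (grey) and 5 p53 targets (green). All 10 grey intervals include 0 and end below the intervals of Ccng1 and Cdkn1a. Those of Trib3 and Chac1 overlap the interval of Sesn2, and grey intervals also overlap those of Mdm2 and Bax.

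Genes known to answer both p53 and Atf4 were read as a set of 4: Ddit4, Atf3, Sesn2 and Gdf15. Of the 3 tested, only Sesn2 passed. Sesn2 encodes Sestrin 2, a leucine-sensing inhibitor of mTORC1. It had 8.56, 7.05, 7.25, 7.44 and 11 CPM in controls 1 to 5, and 21.4, 18.3, 13.7, 13.6, 16.9 and 14.3 CPM in mutants 1 to 6. Every mutant was above every control. The change was 0.98 on the log2 scale (SE 0.16, edgeR adjusted p 0.0291), with mutants higher in 4 of 4 litters and smallest in litter D (0.31). Ddit4 and Atf3, with 0.04 and -0.29, had intervals of -0.25 to 0.34 and -0.93 to 0.36 that end below the 0.64 at which that of Sesn2 begins. Gdf15 had 0 to 6 reads per library and was not tested.

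Other genes of the pathway were read from lists chosen by function. Of 17 other genes of amino acid supply, 0 passed (edgeR; 4 at an unadjusted p under 0.05, where 21.4% of all genes stood; 2 and 0 passed by DESeq2 and limma-voom), with a median log2 fold change of 0.07. The smallest p was that of Slc1a5, a glutamine transporter gene (0.38, SE 0.11, edgeR adjusted p 0.0803). Of the 4 genes at an unadjusted p under 0.05, Slc1a5 and Gpt2 (0.37) were higher in mutants, and Slc38a2 (-0.28) and Aldh18a1 (-0.28) lower. Mthfd2, a mitochondrial folate enzyme gene, had 0.07, and Shmt2, which acts beside it, 0.00. Of 13 genes of tRNA charging and export, 1 was higher: Gars, glycyl-tRNA synthetase, with a control mean of 104 ± 12.4 CPM (SD, n = 5) and a mutant mean of 135 ± 11.1 CPM (SD, n = 6; log2 fold change 0.35, SE 0.08, edgeR adjusted p 0.0462). The median of these 13 was -0.04, with 9 below 0. At an unadjusted p under 0.05 there were 4 of them, Gars and, lower in mutants, Tars (-0.19), Iars (-0.21) and Cars (-0.185), against 21.4% of all genes.

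Among 15 other stress response genes, 11 were tested and 3 were higher, with a median of 0.16: Sesn2, Ddit4l and Nupr1. The share called higher over all genes was 0.702%, here and for the other lists. Sesn2 is also counted among the p53 targets. Ddit4l, the paralogue of Ddit4 and entered in the list as such, was at 6.61 ± 1.34 CPM (SD, n = 5) and 13.6 ± 3.45 CPM (SD, n = 6), with no overlap (1.06, SE 0.19, edgeR adjusted p 0.0353). Nupr1, a small stress-induced chromatin protein gene, rose from a control mean of 1.03 ± 0.605 CPM (SD, n = 5) to a mutant mean of 2.45 ± 1.21 CPM (SD, n = 6), with overlapping groups (1.41, SE 0.33, edgeR adjusted p 0.0499). Nupr1 had 9 to 69 reads per library. Mutants 2 and 6, which were highest for Nupr1 at 3.57 and 4.23 CPM, also had the highest macrophage sums. The part of those cells in its value was not tested.

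The upstream arm gave 1 call in 16 genes, with a median log2 fold change of 0.04, 10 above 0 and 6 below. Eif2b5, a subunit of the exchange factor that reloads eIF2, was at 78.1 ± 4.66 CPM (SD, n = 5) and 98.6 ± 4.90 CPM (SD, n = 6), with no overlap (log2 fold change 0.33, SE 0.07, edgeR adjusted p 0.0406). The 4 eIF2 kinase genes did not pass: Eif2ak1 (-0.19), Eif2ak2 (-0.03), Eif2ak3 (-0.07) and Eif2ak4 (0.10), with edgeR adjusted p of 0.182 to 0.894. Kinase activity is not seen in transcript counts. An unadjusted p under 0.05 (edgeR) was reached by 5 of the 16 genes, against 21.4% of all genes. Eif2b5 was higher, and Impact (-0.41), Eif2s3x (-0.44), Eif2ak1 (-0.19) and Gcn1l1 (-0.23) were lower in mutants.

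Other stress programmes were read in the same way. In the Atf6 and Xbp1 branches of the unfolded protein response, 1 of 19 genes was higher (Manf, 0.38, SE 0.08, edgeR adjusted p 0.0406). The list median was 0.02, with 10 fold changes above 0 and 9 below. Hspa5, the main chaperone of the endoplasmic reticulum, had -0.05. Xbp1 itself had 0.32 (SE 0.08, edgeR adjusted p 0.051), with no overlap and a higher mutant mean in 4 of 4 litters. Dnajc3 (0.36) and Dnajb11 (0.28) were also higher in 4 of 4 litters and did not pass (edgeR adjusted p 0.0603 and 0.0681). In the heat shock list, 1 of 10 tested genes was higher (Hsph1, 0.33, SE 0.07, edgeR adjusted p 0.0454), 9 of 10 fold changes were above 0 and the median was 0.24. Hspa1b (1.42) and Hsp90aa1 (0.32) were higher in 4 of 4 litters and did not pass (edgeR adjusted p 0.084 and 0.053). Hspa1b showed no overlap but had only 2 to 17 reads per library. None passed among 11 oxidative stress genes (0 at an unadjusted p under 0.05, median 0.09, smallest p in Prdx1 at 0.18), 13 hypoxia genes (3 at an unadjusted p under 0.05, median -0.09, smallest p in Bnip3 at -0.33) or 10 tested immediate early genes (2 at an unadjusted p under 0.05, median 0.22, smallest p in Egr1 at 0.62), by edgeR. DESeq2 and limma-voom also gave 0 in each of these 3 lists. In the lists with calls, an unadjusted p under 0.05 was reached by 4 of 11 other stress response genes, 5 of 16 upstream genes, 4 of 19 unfolded protein genes and 5 of 10 heat shock genes, and the share over all genes was 21.4%. After adjustment DESeq2 called 2, 2, 4 and 3 genes in these lists in that order, and limma-voom called 2, 1, 2 and 2. The middle 50% of all genes tested lay between -0.18 and 0.17.

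**Figure D4:**
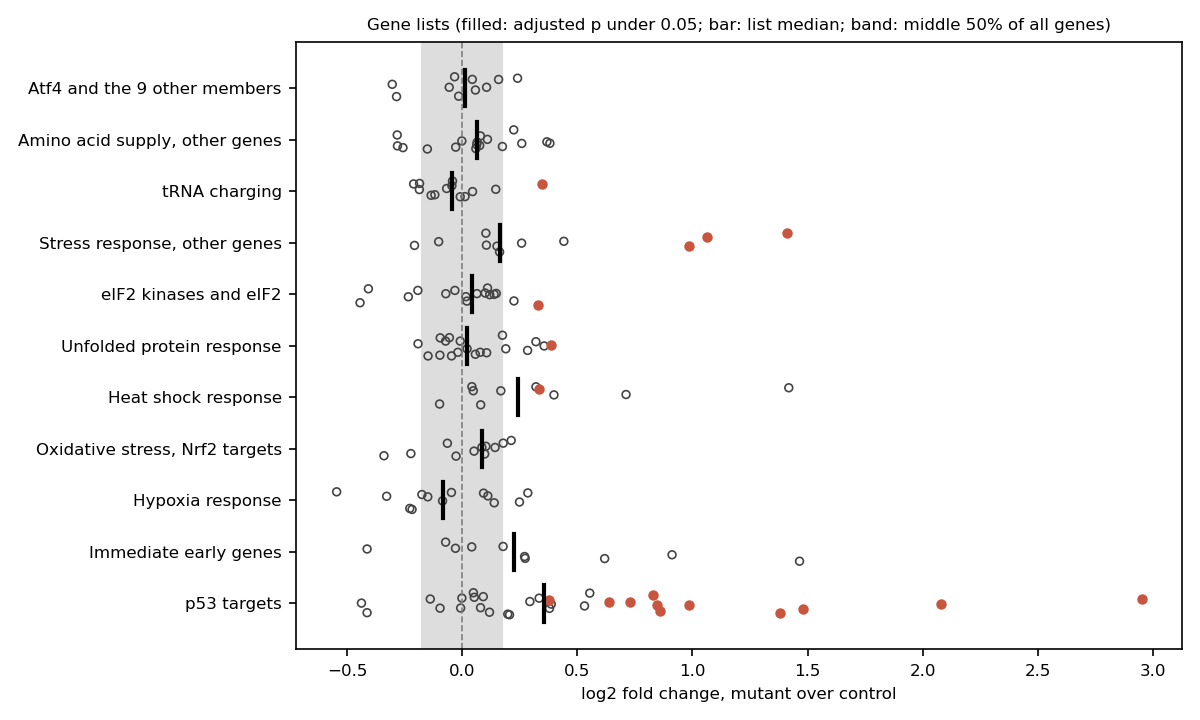
Log2 fold change, mutant over control, of each tested gene by list (filled: adjusted p under 0.05, black bar: list median, grey band: middle 50% of all genes tested). The 10 stress response genes hold no filled point and the p53 targets hold 11, and Sesn2 appears in 2 lists.

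Without any 1 of controls 1 to 4 or mutants 1, 3, 4, 5 and 6, the edgeR calls over all genes numbered 1 to 15, in place of 345. The calls in the stress lists fell in the same fits. None of the 7 called genes of the stress lists (Sesn2, Ddit4l, Nupr1, Gars, Eif2b5, Manf and Hsph1) passed without any 1 of controls 1 to 4 or mutants 1, 3, 4, 5 and 6, with edgeR adjusted p up to 0.183, and all kept their direction. Ccng1 passed in all 11 such fits, Eda2r in 9 and Cdkn1a in 3. These fits are not all separate checks. Control 3 and mutant 6 are the only libraries of litter B, and control 4 and mutant 5 those of litter C. Control 5 is the only control of litter D. With litter as a block, leaving out any 1 of these takes its litter out of the genotype comparison. When the T-run index was added as a covariate, none of the 7 passed, Sesn2 and Ddit4l had 0.79 and 0.52, and Cdkn1a did not pass either (0.78). In that fit 1 p53 target passed, and the 10 stress response genes still gave 0 calls, with a median of -0.08.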

How the data were processed

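The authors deposited raw read counts per gene name, made with featureCounts 1.4.6-p4 on the GENCODE M9 annotation of mm10 with a minimum mapping quality of 10 and no option for strand, pairs or multi-mapping reads, per the file headers. STAR 2.5.4b is named in the submitters' processing notes, with no role given. The exon length per gene name is the other deposited column used. The header names 12 alignment files, and the 11 sample columns were analysed here.

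Counts were analysed with edgeR 4.0.16, limma 3.58.1 and DESeq2 1.42.0 in R 4.3.3. The filter filterByExpr left 15821 genes with 99.9% of the reads, and TMM factors scaled the libraries. Genotype was tested two-sided by quasi-likelihood F in edgeR with litter as a block, p-values were adjusted by Benjamini-Hochberg across the 15821 genes, and the threshold was 0.05. The script was tested on simulated data. SEs and 95% intervals come from that test. Log2 CPM used a prior count of 2, and RPKM divide CPM by exon length. Longest T runs, overlaps and copies come from GENCODE M21, also mm10, and promoters from RefSeq.

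Groups come from the titles and genotype labels, and replicates were numbered in accession order. Litters come from the titles, and the design text says that pairs were litter-matched. Deviations from group means correlated across genes at -0.16 to 0.37 (median 0.13) over the 8 same-litter pairs and at -0.33 to 0.17 (median -0.02) over the 22 other pairs. No libraries of a group agreed within sampling noise (over 25 pairs, chi-square divided by its degrees of freedom was at least 6.88).

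The 10 genes and all lists were chosen with earlier results of these data known. The rule named the 10 genes, Gmnn, Ccng1, Cdkn1a, Mdm2 and Bax, up to 6 genes past the threshold per list or else the gene with the smallest p, and the 5 genes most like the mean profile. The eIF2 kinases, Mthfd2, Shmt2, Hspa5, Xbp1, Dnajc3, Dnajb11, Gdf15, Sesn1, Tars, Iars and Cars were named for their roles or values after their values were seen. So were Ei24, Btg2, Impact, Eif2s3x, Gcn1l1, Gpt2, Slc38a2, Aldh18a1, Hspa1b and Hsp90aa1. Markers of surface ectoderm, endothelium, neural crest and muscle precursors had median log2 fold changes of -0.15, 0.09, -0.53 and 0.19, with 0 genes past the threshold in edgeR, and 1 of 10 mesenchyme markers passed (Lhx9, log2 fold change -0.50, edgeR adjusted p 0.0406; list median -0.02). Alternatives covered scaling, low-count filters, DESeq2, limma-voom, no litter block, each library and each litter left out, removal of genes with T runs of 15 bases or more, and the T-run index as a covariate.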

Additional observations from a re-analysis of the deposited data

Results flagged for a closer look

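Within each genotype, the highest and lowest libraries of 17 genes (the 10 stress response genes, Gmnn and 6 p53-related genes) were compared with the others by the size of their gap. Of 68 such comparisons, 2 stood apart, where chance gives about 3.4. Slc7a11 was lowest in mutant 1, at 2.265 log2 CPM or 4.69 CPM, with the next mutant at 2.694. Gdf15 was highest in mutant 2, at -1.147 log2 CPM, which is 5 reads where each of the other mutants had 1.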

How the results depend on the processing

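The count of 0 among the 10 genes held in all 24 alternatives, of which 1 did not test Slc7a11 and 1, DESeq2, gave no adjusted p for Chac1. Over all alternatives the smallest adjusted p of the 10 genes was 0.155 (Phgdh without control 5, edgeR). Fold changes of 7 genes changed sign in some alternatives. Under the T-run covariate, Trib3, Chac1, Ddit4 and Phgdh had -0.347, 0.263, -0.0845 and -0.0441. Upper-quartile scaling gave 0.0051 for Asns and 0.0221 for Psat1. Without litter A, Ddit4 and Psat1 had -0.103 and 0.0118. Without litter B or C, Trib3 had -0.0821 or -0.166. Without litter D, Atf4, Asns and Psat1 had 0.0278, 0.0082 and 0.0821. Leaving out 1 library gave -0.0974 to 0.0337 for Atf4, -0.166 to 0.327 for Trib3, -0.0741 to 0.123 for Ddit4, -0.0688 to 0.0141 for Asns and -0.0772 to 0.0881 for Psat1. Without the litter block Psat1 had 0.0279, 13 genes were called in place of 345, 6 p53 targets in place of 11 and 1 gene of the other lists in place of 7.

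The count over all genes was 1566 with no filter on low counts, 550 with a filter of 1 CPM in 5 libraries, 1194 with DESeq2, 102 without long T runs, 3 with the T-run index, 9, 3, 1 and 163 without litters A to D, and 1 to 846 without 1 library. Upper-quartile scaling gave 43.1% higher calls against 32.2%. For p53 targets it was 6 without long T runs, 1 with the T-run index, 1, 2, 1 and 7 without litters A to D and 1 to 14 without 1 library. For the other lists it was 19 with no filter, 14 with DESeq2, 4 without long T runs, 0 with the T-run index, 0, 0, 0 and 3 without litters A to D and 0 to 9 without 1 library. The called p53 targets Cdkn1a, Ei24, Zmat3 and Btg2 have T runs of 26, 23, 18 and 18 bases. They were not tested where long T runs were removed, which makes up part of the lower count of 6. Other causes were not tested. Genotype by litter gave 0 of the 10 genes in each of its 4 alternatives. Slc7a11, with a T run of 17 bases, was not tested where long T runs were removed. Chac1, with 4 to 26 reads per library, Atf3, with 18 to 83, and Trib3, with 28 to 95, had few reads, and how far depth limits them was not tested. The list medians moved too. With the T-run index, those of amino acid supply, oxidative stress, the unfolded protein response, other stress response, heat shock and immediate early genes were -0.03, -0.05, 0.14, 0.08, 0.13 and 0.06. Without litter A the immediate early median was 0.04, without control 2 that of the other stress response genes was 0.30, and without litter D that of oxidative stress was 0.01. Leaving out 1 library gave 0.02 to 0.10 for oxidative stress, -0.01 to 0.07 for the unfolded protein response, 0.01 to 0.14 for amino acid supply and 0.15 to 0.27 for immediate early genes.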
